A study of Mus musculus with 2 samples.

Results

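The genes described are 8 enzymes and regulators of fatty acid synthesis: Acly, Me1, Acaca, Fasn, Elovl6, Scd1, Srebf1 and Thrsp. They were taken by symbol from the gene lists of both deposited matrices, and all 8 of 8 were found among the 31053 genes listed. None of them is specific to cholesterol synthesis, although Acly also supplies that pathway, so the enzymes of cholesterol synthesis are given as a list of surrounding genes. The samples were mixed suspensions of hepatocytes and non-parenchymal cells from C57BL/6 mouse liver, profiled by droplet single-cell RNA sequencing. One library, labelled pIVCL, came from liver congested for 6 weeks by partial inferior vena cava ligation, an operation that narrows the vein draining the liver and raises portal pressure, begun at 8 to 10 weeks of age. The other, labelled Control and titled healthy, has no operation of its own described. The start age of 8 to 10 weeks is recorded for both samples. The ligation is described in the growth protocol of both samples, and the libraries were told apart by genotype label and by title alone. Sham surgery, sex and the number of animals per library are not given in the sources used here.

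Fatty acid synthesis turns cytosolic citrate into long-chain fatty acids. Acly (ATP citrate lyase) splits citrate to acetyl-CoA, Me1 (cytosolic malic enzyme) supplies NADPH, Acaca (acetyl-CoA carboxylase) makes malonyl-CoA in the committed step, and Fasn (fatty acid synthase) builds palmitate. Elovl6 elongates palmitate to stearate, and Scd1 (stearoyl-CoA desaturase) introduces the double bond that yields palmitoleate and oleate. Srebf1 encodes the transcription factor SREBP-1, which drives these genes in liver after feeding, and Thrsp (Spot 14) is a small protein induced with lipogenesis by thyroid hormone, carbohydrate and insulin. In liver the pathway is driven by insulin and glucose, is restrained by fasting, and varies along the lobule between the portal tract and the central vein.

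On GRCm38, GENCODE M21 places Acly at chr11:100476353-100528000 on the minus strand, Me1 at chr9:86581371-86695953 on the minus strand, Acaca at chr11:84129672-84401651 on the plus strand and Fasn at chr11:120805846-120824547 on the minus strand. Elovl6 lies at chr3:129532355-129638495 on the plus strand, Scd1 at chr19:44394455-44407879 on the minus strand, Srebf1 at chr11:60199089-60222581 on the minus strand and Thrsp at chr7:97412938-97417730 on the minus strand. RefSeq promoter windows on GRCm38.p6 were matched for 7 of the 8 genes. The windows of 3 genes are shown, for genes whose levels differed in unlike ways: Fasn and Acly, which were higher in the pIVCL library, and the most upstream start of Srebf1, which differed little. Each line holds the 250 bases before the annotated start, 5′ to 3′ on the gene's strand, with capitals marking CCAAT (the NF-Y box) and GGGCGG (the GC box) on either strand. The windows are chr11:120824548-120824797 for Fasn, chr11:100528001-100528250 for Acly and chr11:60222582-60222831 for Srebf1, all on the minus strand.
Fasn: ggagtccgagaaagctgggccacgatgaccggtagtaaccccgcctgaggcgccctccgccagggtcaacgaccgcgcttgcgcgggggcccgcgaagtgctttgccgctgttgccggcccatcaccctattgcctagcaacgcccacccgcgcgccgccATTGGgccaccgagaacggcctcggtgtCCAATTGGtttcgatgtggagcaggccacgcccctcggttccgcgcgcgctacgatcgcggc
Acly: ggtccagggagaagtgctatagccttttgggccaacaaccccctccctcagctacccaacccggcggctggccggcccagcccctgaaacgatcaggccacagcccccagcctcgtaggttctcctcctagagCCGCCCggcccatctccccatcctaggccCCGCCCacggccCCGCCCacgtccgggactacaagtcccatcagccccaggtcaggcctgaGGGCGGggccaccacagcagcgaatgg
Srebf1: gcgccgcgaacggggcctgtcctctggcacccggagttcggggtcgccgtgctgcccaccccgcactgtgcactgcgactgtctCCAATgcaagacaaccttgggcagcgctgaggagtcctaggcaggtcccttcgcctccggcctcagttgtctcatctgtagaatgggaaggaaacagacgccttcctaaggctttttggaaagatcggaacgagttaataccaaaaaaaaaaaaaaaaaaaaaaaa
The Fasn window held 3 CCAAT matches, which lay 90, 62 and 59 bases before the start, the last 2 overlapping on opposite strands. The Acly window held 4 GGGCGG matches and the Srebf1 window shown 1 CCAAT match. Srebf1 had 2 further windows, not shown. That at chr11:60220628-60220877 held 2 GGGCGG matches, and that at chr11:60210472-60210721 held 2 GGGCGG and 1 CCAAT match. The UMIs of Srebf1 are not assigned to a start. Of 32851 promoter windows of the same length, 33.85% held CCAAT and 32.7% GGGCGG on either strand. No window of the 7 genes held TCACNCCAC, a sterol regulatory element, or CACGTG, an E-box, which 1.05% and 6.02% of all windows held. Nor did any hold the carbohydrate response element or the LXR element as searched, which 0 and 5 of the 32851 windows held. Only these exact strings in 250 bases were searched, so variant or more distant elements are not covered. The only Acaca window, chr11:84195188-84195437, lay inside the gene and downstream of the gene start given above.

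The Control library held 3574 barcodes and 24637681 UMIs (unique molecular identifiers, each counting 1 captured mRNA molecule), and the pIVCL library 7042 barcodes and 38154000 UMIs. After filtering, 2721 Control cells (median 5262 UMIs) and 5443 pIVCL cells (median 2005 UMIs) remained, and 9 barcodes were shared among the kept cells. Hepatocyte-like cells numbered 471 in Control and 1851 in pIVCL, with a median of 6859 and 2631 UMIs. Cells over 10000 UMIs were 214 and 682 of these and supplied 90.6% and 86.9% of the hepatocyte-like UMIs. Albumin reached 56473 CPM (UMIs of a gene per 1000000 UMIs of the summed cells) in Control and 47895 CPM in pIVCL hepatocyte-like cells. Most hepatocyte-like UMIs came from different clusters in each library: clusters 19 and 27 held 220 Control cells and 2 pIVCL cells, and clusters 5 and 10 held 7 Control and 688 pIVCL cells. Each group held a single library, so no test across libraries and no replicate check could be made. Intervals are exact Poisson intervals for levels and conditional exact binomial intervals for ratios at 95%, and cover counting error only.

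The first question was how the 8 genes differed between pIVCL and Control hepatocytes. Scd1 stood far apart from the other genes, at 3.25 times its Control level in the pIVCL library. Elovl6 was 1.85 times, Acly 1.45 times, Me1 1.33 times, Fasn 1.22 times and Acaca 1.21 times the Control level. Thrsp was lower at 0.839 times, and the interval of Srebf1 included 1. The counting interval of the ratio lay above 1 for 6 of the 8 genes and below 1 for 1, beside 22.8% and 22.1% of the 11296 genes with at least 20 summed UMIs. Past 2-fold there was 1 of 8, Scd1, beside 0.832% of all genes (0.398% higher and 0.434% lower). The median log2 ratio of the 8 genes was 0.30 on the log2(CPM + 20) scale, and that of all 11296 genes was 0.0037. A filter of at least 1000 UMIs and at most 15% mitochondrial UMIs lowered the median of the 8 to 0.069, and leaving out the clusters that came over 95% from 1 library lowered it to 0.14, with 4 of the 8 genes higher in each case.

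Among the enzymes of substrate supply, Acly was at 123 CPM in Control (888 UMIs, interval 115 to 131) and 178 CPM in pIVCL (3178 UMIs, 172 to 184), a ratio of 1.45 (1.34 to 1.56). Me1 was at 102 CPM in Control (738 UMIs) and 136 CPM in pIVCL (2424 UMIs), a ratio of 1.33 (1.22 to 1.44). For both genes the counting intervals of the 2 libraries did not overlap, which also held for Acaca, Fasn, Elovl6, Scd1 and Thrsp. Of all 11296 genes measured, 22.8% had an interval of the ratio above 1. With cells thinned to 1000 UMIs the intervals of the ratios included 1, at 1.27 (0.914 to 1.80) for Acly and 1.25 (0.901 to 1.76) for Me1.

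The committed step and palmitate synthesis differed less. Acaca was at 52.4 CPM in Control (378 UMIs) and 63.2 CPM in pIVCL (1130 UMIs), a ratio of 1.21 (1.07 to 1.36). Fasn was at 162 CPM in Control (1171 UMIs) and 198 CPM in pIVCL (3540 UMIs), a ratio of 1.22 (1.14 to 1.31). The direction of both turned with the cells included. Without the hepatocyte-like clusters that came over 95% from 1 library, Fasn was at 0.918 times (0.749 to 1.13) and Acaca at 0.503 times (0.383 to 0.665) the Control level, and a filter of at least 1000 UMIs and at most 15% mitochondrial UMIs gave 0.922 and 0.644. Most Control UMIs left without those clusters came from cluster 20, with 49 Control cells, which held 62 of Acaca and 72 of Fasn. No other kept cluster held more than 8 Control UMIs of Acaca or 20 of Fasn. The part of cluster 20 in these ratios was not tested.

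Elovl6 and Scd1 held the largest ratios of the genes described in full, over all hepatocyte-like cells. This did not extend to all elongase and desaturase genes. Elovl2 was at 0.752 (0.718 to 0.787) and Elovl5 at 0.708 (0.669 to 0.750) times the Control level. Elovl3 was at 0.107 times, from 53 Control and 14 pIVCL UMIs, and Elovl1 was higher at 1.515 (1.292 to 1.783). The desaturase genes Fads1 and Fads2 were at 1.06 (1.01 to 1.12) and 0.953 (0.825 to 1.10). Elovl6 was at 47.2 CPM in Control (341 UMIs, 42.4 to 52.5) and 87.6 CPM in pIVCL (1565 UMIs, 83.3 to 92.0), a ratio of 1.85 (1.65 to 2.09). Its interval reached 1 under 3 alternatives: 1.25 (0.931 to 1.70) with at least 1000 UMIs and at most 15% mitochondrial UMIs, 1.43 (1.00 to 2.11) without the clusters over 95% from 1 library, and 1.39 (0.868 to 2.34) with cells thinned to 1000 UMIs. In the first of these it lay below Me1 (1.55) and Acly (1.32), and in the second below Acly (1.73) and Me1 (1.52). Scd1 was at 992 CPM in Control (7162 UMIs, 969 to 1015) and 3219.7 CPM in pIVCL (57529 UMIs, 3194 to 3246), a ratio of 3.25 (3.17 to 3.33). Ordered by log2 ratio, Scd1 was 9th of the 11296 genes and Elovl6 175th. The other mouse stearoyl-CoA desaturase genes contributed little in these cells, with 12 Control and 47 pIVCL UMIs of Scd2, 0 and 1 of Scd3, and 0 of Scd4 in both.

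The regulators did not follow the enzymes. Srebf1 was at 80.1 CPM in Control (578 UMIs) and 77.3 CPM in pIVCL (1381 UMIs), a ratio of 0.965 with an interval of 0.876 to 1.07. Thrsp was at 170 CPM in Control (1226 UMIs) and 142 CPM in pIVCL (2544 UMIs), a ratio of 0.839 (0.783 to 0.898). The UMIs of Srebf1 count all its transcripts together and do not separate the SREBP-1a and SREBP-1c forms, nor do they measure the processed protein. Without the clusters over 95% from 1 library the ratios were 0.648 (0.497 to 0.852) for Srebf1 and 0.503 (0.439 to 0.578) for Thrsp. Most Control UMIs left there also came from cluster 20, which held 52 of Srebf1 and 192 of Thrsp. No other kept cluster held more than 13 Control UMIs of Srebf1 or 45 of Thrsp.

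**Figure D1:**
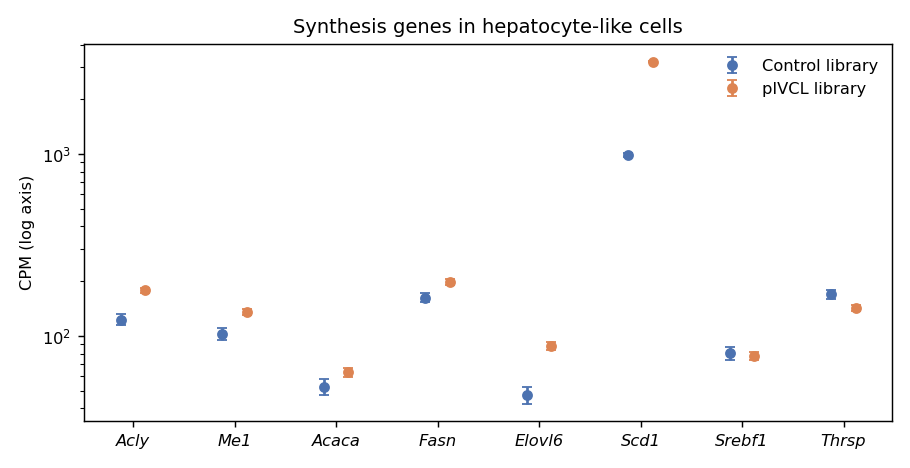
Level of each gene in hepatocyte-like cells of the Control and pIVCL libraries, in CPM on a log axis, with exact Poisson 95% intervals. Scd1 is at 992 CPM in Control and 3219.7 CPM in pIVCL, while Srebf1 overlaps between the libraries and Thrsp is lower in pIVCL.

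RNA of other cells in the hepatocyte-like droplets also differed between the libraries. The 9 neutrophil markers, S100a8 and Ngp among them, summed to 1.52 CPM in Control and 183 CPM in pIVCL, with 9 of 9 higher in pIVCL. The 12 markers of liver sinusoidal endothelial cells (LSEC) summed to 178 and 39.1 CPM, with 0 of 12 higher in pIVCL, and the 10 Kupffer markers to 48.3 and 22.1 CPM. Their part in the ratios above was not tested. Of 7 adipocyte markers, 0 were higher in pIVCL, and they summed to 1782 and 1209.9 CPM, nearly all of it Pck1 (12825 and 21516 UMIs), which hepatocytes also express. Lipe had 43 and 103 UMIs. Adipoq, Plin1, Lep, Retn and Cfd had 0 UMIs in the hepatocyte-like cells of both libraries, which allows up to 3 UMIs per marker and library.

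Depth per cell differed between the libraries, so the genes were compared within 5 bins of total UMIs. Scd1 was higher in pIVCL in every bin. From the shallowest bin (500 to 1000 UMIs) to the deepest (over 10000 UMIs), Scd1 was at 770, 814, 679, 546 and 1029 CPM in Control and at 2606, 1955, 1951, 3136 and 3343 CPM in pIVCL. The ratio ran from 2.40 (1.80 to 3.28) in cells of 1000 to 2000 UMIs to 5.74 (4.92 to 6.74) in cells of 5000 to 10000 UMIs, and no interval reached 1.

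The other genes had few UMIs outside the deepest bin. Over 10000 UMIs the ratios were 1.44 for Acly, 1.28 for Me1, 1.30 for Acaca, 1.23 for Fasn, 1.87 for Elovl6, 1.00 for Srebf1 and 0.837 for Thrsp. These lay close to the ratios of all hepatocyte-like cells. That closeness is no separate check, since this bin supplied 90.6% of the hepatocyte-like UMIs in Control and 86.9% in pIVCL. Between 5000 and 10000 UMIs Thrsp was at 496 CPM in the 45 Control cells and 237 CPM in the 104 pIVCL cells, a ratio of 0.478 (0.382 to 0.598). Elovl6 had 0 UMIs in the 93 Control cells of 500 to 1000 UMIs, which allows up to 48.1 CPM (3 UMIs), beside 74.0 CPM in the 430 pIVCL cells. In the hepatocyte-like cells under 10000 UMIs together, a split chosen after the data were seen, Acaca was at 0.714 times (0.518 to 0.996) the Control level.

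**Figure D2:**
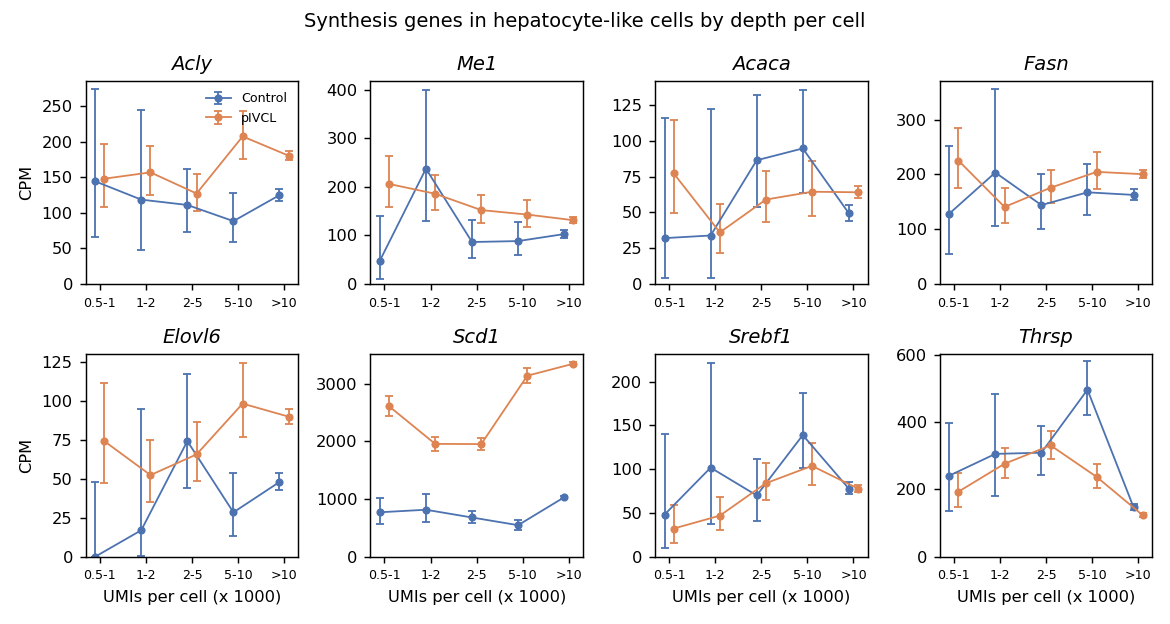
Level of each gene (CPM, linear axis from 0) in hepatocyte-like cells of each library by total UMIs per cell, in units of 1000, with exact Poisson 95% intervals (up to 3 UMIs where a gene has 0). Scd1 is the gene whose libraries are apart in all 5 bins, at 546 to 1029 CPM in Control and 1951 to 3343 CPM in pIVCL.

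The share of mitochondrial UMIs separated hepatocyte-like cells in another way. It had a median of 16.9% in Control and 3.62% in pIVCL, with 20.3% and 19.5% in cells over 10000 UMIs and 2.30% and 1.39% in shallower cells. In cells of 15 to 25% mitochondrial UMIs, which held 253 Control and 676 pIVCL cells, Scd1 was at 1035 and 3384 CPM. In cells of at most 2% (129 and 727 cells) it was at 470 and 1647 CPM. Scd1 was therefore higher in pIVCL in both kinds of cell and lower in the cells of low mitochondrial share in both libraries.

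Thrsp ran the other way along this measure. Cells of at most 2% mitochondrial UMIs had 511 CPM of Thrsp in Control and 311 CPM in pIVCL, against 142 and 125 CPM in cells of 15 to 25%. In Control the level was highest in the 39 cells of 2 to 5%, at 898 CPM (87 UMIs), beside 255 CPM in pIVCL. Cluster 20, a group of 49 Control and 77 pIVCL cells, was led by the nuclear RNA Neat1 and the transcription factor gene Mlxipl. With a median of 1.86% and 2.03% mitochondrial UMIs, it had the highest Thrsp level of the hepatocyte-like clusters in both libraries. There Thrsp was at 702 and 506 CPM, Srebf1 at 190 and 275 CPM (52 and 76 UMIs), Acaca at 227 and 116 CPM, and Scd1 at 292 and 1138 CPM in Control and pIVCL. In cluster 26, led by the cell division genes Cdc20, Cenpf and Mki67, Scd1 was at 458 CPM in 10 Control cells and 1683 CPM in 80 pIVCL cells, and Thrsp at 58.3 and 46.6 CPM.

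The spread between single cells was described in the 214 Control and 682 pIVCL hepatocyte-like cells over 10000 UMIs. Control cells ranged from 0 to 3061 Scd1 CPM with a median of 971, and pIVCL cells from 132 to 15183 CPM with a median of 2967. The 10th and 90th percentiles were 242 and 1935 CPM in Control and 1086 and 6250 CPM in pIVCL. Above the Control median lay 632 of the 682 pIVCL cells (92.7%), and above the Control 90th percentile 497 (72.9%). The higher pIVCL level was thus spread over most deep cells, and the 2 distributions overlapped. These cells share 1 library each and are not replicates of the condition.

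**Figure D3:**
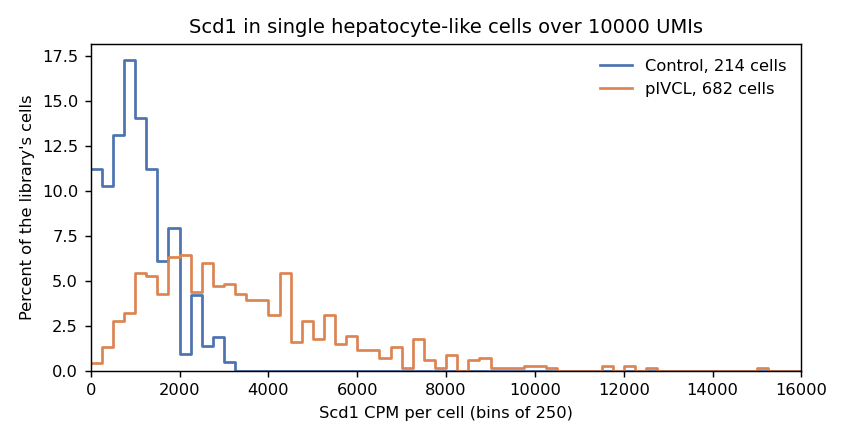
Distribution of Scd1 over single hepatocyte-like cells with more than 10000 UMIs, as the percent of each library's cells (y axis) per bin of 250 CPM (x axis). Control cells end at 3061 CPM, while the pIVCL cells have a median of 2967 CPM and reach 15183 CPM.

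With each of these cells thinned to 10000 UMIs, the Fano factor (variance over mean, 1 for pure counting noise) of Scd1 was 4.79 in Control and 14.4 in pIVCL. The other 7 genes lay between 0.922 and 2.60, with Thrsp highest in both libraries at 2.43 and 2.60 and Srebf1 at 0.922 and 1.09. No cell was left out by the thinning. Scd1 UMIs were found in 204 of 214 Control cells (95.3%) and in 682 of 682 pIVCL cells after thinning, and in 99.5% and 100% before it. Acly was found in 63.6% of Control and 78.7% of pIVCL cells, and in 89.7% and 94.6% before thinning. Elovl6 was found in 37.4% (30.9 to 44.2) of Control and 52.5% (48.7 to 56.3) of pIVCL cells, and in 68.2% and 77.1% before thinning. Thrsp was found in 69.6% and 57.0%, and in 92.1% and 77.6% before thinning.

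Across these cells the 8 genes were only loosely linked. The highest of the 28 pairwise Pearson correlations of thinned log counts in Control were 0.358 for Scd1 with Acly, 0.314 for Fasn with Acly and 0.290 for Scd1 with Fasn. In pIVCL the highest were 0.281 for Scd1 with Fasn and 0.239 for Fasn with Thrsp, and Scd1 with Acly was at 0.115. Srebf1 reached at most 0.0998 with any other gene of the group in Control (Fasn) and 0.0560 in pIVCL (Scd1). The cells of a library share its depth and preparation, and the low counts of most of the genes limit such correlations.

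Position along the lobule was taken from the share of pericentral among pericentral and periportal marker UMIs, from lists that hold none of the 8 genes. Cells with at least 10 such UMIs were divided at the tertiles of both libraries together, which gave 114 periportal, 71 middle and 210 pericentral Control cells and 478, 512 and 390 pIVCL cells. The markers themselves differed between the libraries: 9 of 10 pericentral markers had a ratio below 1, with Glul (glutamine synthetase) at 1623 CPM in Control and 48.4 CPM in pIVCL and Cyp2e1 at 3350 and 690 CPM. The 3 zones are therefore ranges of a score, and 102 Control and 571 pIVCL cells lay within 0.05 of a boundary. The part of these marker differences in the zone results was not tested.

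In Control, 7 of the 8 genes were lower in the pericentral than in the periportal zone with an interval below 1, beside 6.40% of 9229 genes measured there (23.2% were above 1). The gradient was steepest for Acly, at 199 CPM in the periportal, 161 CPM in the middle and 75.5 CPM in the pericentral zone, a pericentral over periportal ratio of 0.379 (0.327 to 0.440). Acaca followed at 0.454, Thrsp at 0.573, Fasn at 0.607, Elovl6 at 0.651, Scd1 at 0.728 and Me1 at 0.773. Srebf1 was at 82.2 and 79.3 CPM, a ratio of 0.965 with an interval of 0.801 to 1.17 that included 1.

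In pIVCL the gradient ran the other way for Elovl6, and the ratio was nearer 1 than in Control for the other 6 of those genes. Acly was still at 238 CPM in the periportal, 191 CPM in the middle and 108 CPM in the pericentral zone, a ratio of 0.452 (0.411 to 0.497). Acaca was at 0.750, Thrsp at 0.776 and Fasn at 0.876, each with an interval below 1. Scd1 had a ratio of 0.981 (0.961 to 1.00) and Me1 one of 1.06 (0.963 to 1.17). Elovl6 was at 79.7 CPM in the periportal and 104 CPM in the pericentral zone, a ratio of 1.30 (1.15 to 1.47). Srebf1 had a ratio of 0.769 (0.672 to 0.879). In all, 5 of 8 genes had an interval below 1 and 1 of 8 above 1, beside 7.78% and 22.5% of 10290 genes. The difference in gradient between the libraries was not tested.

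The ratio between the libraries varied with the zone, in a different way for each gene. In the periportal zone the pIVCL over Control ratio was 1.02 (0.912 to 1.13) for Fasn, 0.888 (0.743 to 1.07) for Acaca, 1.10 (0.958 to 1.28) for Me1, 1.20 (1.07 to 1.34) for Acly, 1.28 (1.05 to 1.56) for Elovl6 and 2.73 (2.62 to 2.85) for Scd1. In the pericentral zone it was 1.47 (1.32 to 1.63) for Fasn, 1.47 (1.21 to 1.79) for Acaca, 1.52 (1.34 to 1.72) for Me1, 1.43 (1.25 to 1.64) for Acly, 2.55 (2.15 to 3.04) for Elovl6 and 3.69 (3.55 to 3.82) for Scd1. In the middle zone it was 0.957 for Fasn, 1.21 for Acaca, 1.29 for Me1, 1.18 for Acly, 1.80 for Elovl6 and 2.66 for Scd1, and the intervals of Fasn, Acaca and Acly included 1. Thrsp was lower in pIVCL in the periportal zone, at 0.743 (0.666 to 0.830), while its interval in the pericentral zone included 1, at 1.01 (0.900 to 1.13), and it was at 0.570 (0.485 to 0.673) in the middle zone. Srebf1 was at 1.06, 1.03 and 0.842 from the periportal to the pericentral zone, with an interval below 1 (0.726 to 0.978) in the last. Restricting the zones to cells over 10000 UMIs gave pericentral over periportal ratios of 0.365 and 0.448 for Acly, 0.705 and 0.982 for Scd1 and 0.598 and 1.31 for Elovl6 in Control and pIVCL.

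**Figure D4:**
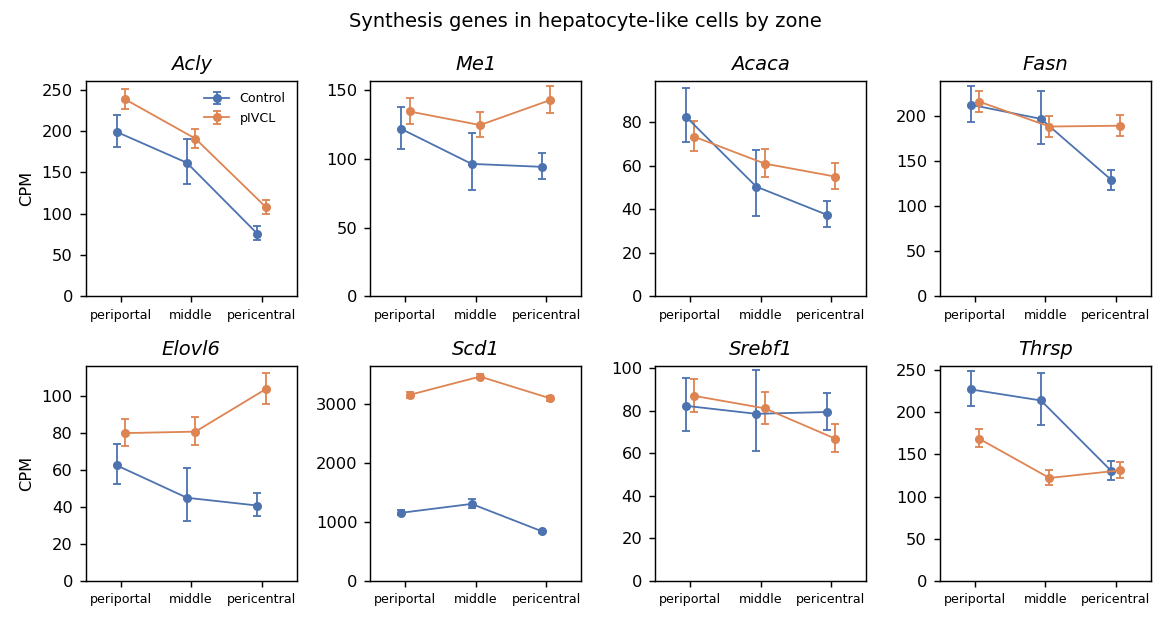
Level of each gene (CPM, linear axis from 0) in the periportal, middle and pericentral zones of hepatocyte-like cells in each library, with exact Poisson 95% intervals. Acly declines toward the central vein in both libraries, and Elovl6 declines in Control but is highest in the pericentral zone of pIVCL.

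The innermost hepatocytes were singled out by Glul, which marks the layer around the central vein. Of cells over 10000 UMIs, 30 Control and 8 pIVCL cells had at least 3 UMIs and 500 CPM of Glul. Scd1 was at 281 CPM (252 to 313) in the Glul-rich and 1196 CPM in the other Control cells, and at 2053 CPM (1854 to 2268) and 3359 CPM in pIVCL. The pIVCL over Control ratio of Scd1 was 7.31 (6.30 to 8.49) in Glul-rich cells and 2.81 (2.74 to 2.88) in the rest. Acly was at 36.9 CPM in Glul-rich and 145 CPM in other Control cells, and at 68.8 CPM (13 UMIs) and 182 CPM in pIVCL. With 8 pIVCL cells these values rest on few cells, and the difference between the 2 ratios was not tested.

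Outside hepatocytes, the droplets of every class also held hepatocyte RNA, so each gene was set against the UMIs expected if it had come only with that RNA. The expectation scales a gene's ratio to 8 abundant hepatocyte genes (Alb, Apoa1, Apoa2, Apoc3, Ttr, Trf, Fgb and Ambp) in hepatocyte-like cells of the same library. For Scd1 this ratio of observed to expected ran in pIVCL from 0.626 in cholangiocyte-like to 1.83 in B cell-like cells, over classes of at least 50 cells. Among the named Control classes of that size it ran from 1.21 in vascular endothelial-like to 3.53 in B cell-like cells (181 UMIs), with Kupffer-like cells at 2.84. With cells thinned to 1000 UMIs, 36.3% of pIVCL LSEC-like cells and 59.2% of Kupffer-like cells had a Scd1 UMI, beside 8.40% and 21.9% in Control. Without thinning these shares were 73.4% and 75.5% in pIVCL and 39.1% and 50.6% in Control, and the thinning left out 5 and 404 shallower pIVCL and 18 and 82 Control cells. LSEC-like cells of the 2 libraries came mostly from different clusters. Clusters 0 and 22 held 696 and 106 Control cells and 3 pIVCL cells each, and cluster 2, led by Esm1, held 37 Control and 418 pIVCL cells. In LSEC-like cells the hepatocyte genes summed to 4623 CPM in Control and 7998 CPM in pIVCL, at a median depth of 7285 and 3607 UMIs, and in Kupffer-like cells to 6746 and 21502 CPM, at 2099 and 959 UMIs. The pIVCL over Control ratios of Scd1 in these classes, 5.33 (4.73 to 6.01) and 5.29 (4.62 to 6.08), are thus given beside hepatocyte RNA that was also higher.

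Acly had the highest ratio of observed to expected UMIs of the 8 genes in the 6 non-hepatocyte classes with at least 50 cells in both libraries, except in Control hepatic stellate-like cells, where Acaca was higher. It was observed at 15.6 times the expected UMIs in LSEC-like, 18.6 times in Kupffer-like, 14.5 times in vascular endothelial-like and 7.45 times in hepatic stellate-like cells of Control. In pIVCL the same classes were at 8.27, 3.00, 11.7 and 9.65 times. Its level was 90.8 CPM (516 UMIs) in Control and 124 CPM (205 UMIs) in pIVCL LSEC-like cells, a ratio of 1.36 (1.15 to 1.60) between the largely different clusters given above. Kupffer-like cells went the other way, at 158 CPM (210 UMIs) in Control and 121 CPM (138 UMIs) in pIVCL, a ratio of 0.763 (0.611 to 0.951). In stellate-like cells Acly was at 68.1 CPM in Control and 118 CPM in pIVCL, a ratio of 1.73 (1.22 to 2.45).

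Hepatic stellate-like cells, the vitamin A storing pericytes of the sinusoid, held several of the genes. Acaca was at 8.01 times its expected UMIs in Control (38 UMIs) and 8.89 times in pIVCL (19 UMIs), Me1 at 6.69 and 7.20 times and Srebf1 at 6.34 and 7.27 times. Scd1 was at 1.47 and 1.54 times and Thrsp at 1.36 and 0.623 times there. The pIVCL over Control ratios of Acaca, Me1 and Srebf1 in this class had intervals that included 1.

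Srebf1 was above the expected UMIs in each of the 6 non-hepatocyte classes with at least 50 cells in both libraries, from 2.42 to 8.43 times in Control and from 2.22 to 7.28 times in pIVCL. Cholangiocyte-like cells (57 in pIVCL, 35 in Control) held Srebf1 at 5.16 times, Me1 at 4.25 times and Elovl6 at 4.05 times the expected UMIs in pIVCL. Thrsp was at 4.69 times the expected UMIs in Control LSEC-like cells (214 UMIs, 37.7 CPM) and 1.71 times in pIVCL (34 UMIs, 20.5 CPM). Its pIVCL over Control ratio there was 0.544 (0.367 to 0.784), again between largely different LSEC-like clusters. Fasn stayed between 1.09 and 3.06 times the expected UMIs in the 6 classes of both libraries.

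**Figure D5:**
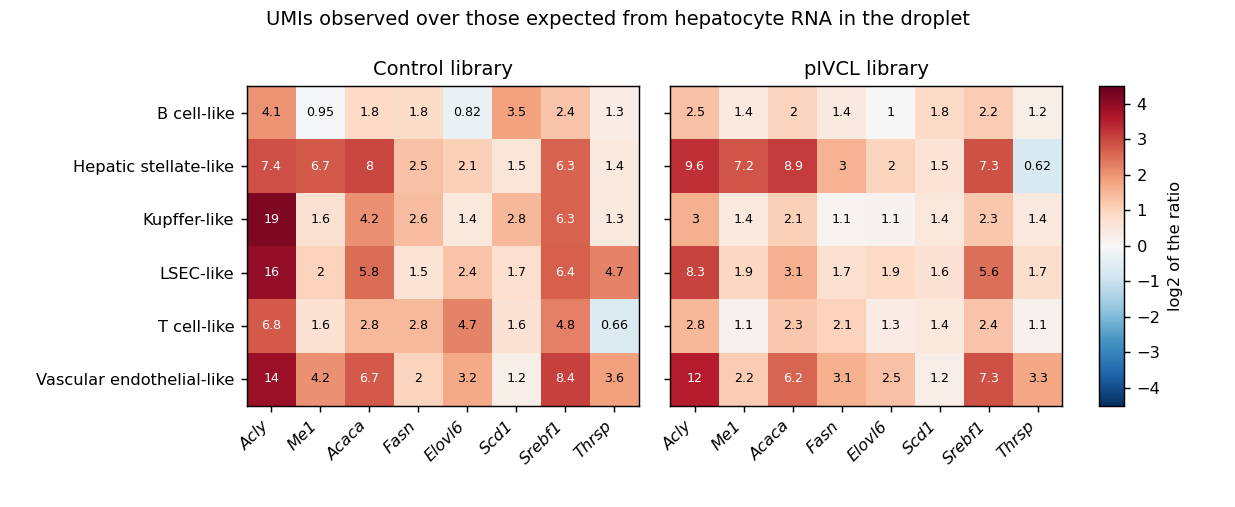
UMIs of each gene observed over those expected from hepatocyte RNA in the droplet, for the 6 non-hepatocyte classes with at least 50 cells in each library (color on a log2 scale, ratio printed in each cell of the plot). Acly reaches 18.6 in Control Kupffer-like and 15.6 in Control LSEC-like cells, while Scd1 lies between 1.21 and 3.53 in the 6 classes.

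The genes around the pathway differed in both directions in hepatocyte-like cells. Of 24 measured other genes of fatty acid and triglyceride synthesis, 7 had an interval above 1 and 10 below 1, with a median log2 ratio of 0.0087. The shares over all genes measured were 22.8% above 1 and 22.1% below 1. Tecr, the last reductase of the elongation cycle in which Elovl6 acts, was at 91.3 CPM in Control and 157 CPM in pIVCL (1.72, 1.58 to 1.88). The other 3 were lower: the phosphatidate phosphatase gene Lpin1 was at 262 CPM in Control and 33.4 CPM in pIVCL (0.127, 0.116 to 0.140), Lpin2 at 350.1 and 106 CPM (0.304, 0.286 to 0.322) and the acyltransferase gene Dgat2 at 312 and 182 CPM (0.584, 0.553 to 0.617). These 4 genes were those of the list with the largest absolute log2 ratio and do not stand for all of triglyceride assembly. In it Agpat2 had a ratio of 1.04 (0.985 to 1.09) and Dgat1 one of 1.18 (0.950 to 1.48). Gpam, an acyltransferase gene of the same assembly, was lower at 0.640 (0.440 to 0.938), from 48 Control and 76 pIVCL UMIs. Lpin1 and Lpin2 were past 2-fold lower, beside 0.434% of all genes.

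Cholesterol synthesis was split within its own sequence of steps. Of its 20 enzymes, 6 had an interval above 1 and 13 below 1, beside 22.8% and 22.1% of all genes. None was past 2-fold on the log2(CPM + 20) scale, and the median log2 ratio was -0.22. Msmo1, a sterol methyl oxidase, and Hsd17b7, a ketosteroid reductase of the same demethylation steps, were at 186 and 94.6 CPM in Control. In pIVCL they were at 106 and 52.6 CPM (0.566 and 0.556). Fdps, which makes farnesyl diphosphate, was higher at 61.8 and 107 CPM (1.74, 1.57 to 1.93). Pmvk, Ebp and Sc5d were among the other enzymes with an interval above 1.

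No gene of the lists that control the pathway had an interval above 1. Of 10 genes of sterol uptake and SREBP processing, 0 had an interval above 1 and 7 below 1 (median log2 ratio -0.25). Of all genes measured, 22.8% had an interval above 1 and 22.1% below 1. Stard4, a sterol carrier, was at 120 CPM in Control and 70.5 CPM in pIVCL, the SREBP escort gene Scap at 73.8 and 47.4 CPM, and its retention factor gene Insig1 at 335 and 236 CPM. Of 10 lipogenic transcription factor genes, 0 had an interval above 1 and 5 below 1 (median -0.13), beside the same shares of all genes. Among these, Mlxipl (the carbohydrate response factor ChREBP) was at 133 and 104 CPM (0.779, 0.720 to 0.843), the retinoid receptor gene Rxra at 179 and 134 CPM, Usf2 at 76.6 and 62.0 CPM, and Nr0b2, the bile acid induced repressor SHP, at 119 and 53.1 CPM (0.447, 0.407 to 0.491).

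The genes whose pattern was most like that of the 8 were sought over 20 groups of hepatocyte-like cells, each 1 library, zone and depth bin with at least 20 cells. The highest Pearson correlations with the mean standardised log2(CPM + 20) of the 8 genes were 0.775 for Apoc3, 0.774 for Aqp8, 0.761 for Orm1, 0.745 for Rarres2 and 0.706 for Tm4sf4. The 8 genes themselves correlated less with their own mean, from 0.149 for Me1 to 0.545 for Scd1. The groups of a library share its depth and preparation, so these values describe the 2 libraries and carry no test.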

How the data were processed

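The authors deposited, for each library, a gene by barcode matrix of raw UMI counts, made with Cell Ranger 3.0.2 on mm10 per the submitters' processing notes, with no annotation release named. Barcodes below 500 UMIs or 200 genes were dropped, as were those above 25% mitochondrial UMIs, which were 23.7% of Control and 22.6% of pIVCL barcodes. Scrublet (scanpy 1.11.5) called 5 and 3 doublets, which were removed, but under 0.5% of cells shows that the caller did not work, so doublets remain. Both libraries entered a single clustering with no integration step (Leiden, leidenalg 0.10.2, resolution 2, 30 principal components, 20 neighbours, 2000 variable genes without lipid and mitochondrial genes), and the 37 clusters were named "-like" from marker lists, with 4 left unnamed. UMIs were summed per class and library and scaled to CPM. Log2 ratios had 20 CPM added, which understates differences of low genes. A count of 0 was given an upper limit of 3 UMIs. Calculations used Python 3.11.15, numpy 2.4.6, scipy 1.17.1 and pandas 2.3.3, and figures matplotlib 3.10.9. On simulated UMIs of 10938 genes with 200 changed, 95.6% of the ratio intervals held the true value. The simulated UMIs were independent Poisson counts, for which such intervals are built, so this checks the calculation only. It does not cover the spread between cells, where Scd1 had Fano factors of 4.79 in Control and 14.4 in pIVCL. The promoter windows are RefSeq sequences.

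All genes described in full are the 8 chosen by symbol. From each other list the text names the 2 to 4 genes with the largest absolute log2 ratio among those with at least 30 summed UMIs. From a search over genes with at least 200 UMIs it names the 5 with the pattern most like the 8. Some genes that this rule selects are not reported here. Other genes named were chosen after their values were seen. The 8 genes, the lists and the tests were chosen with earlier results of these data known. Alternatives changed the cell filter, class rule, scaling, depth, zone rule and the CPM added, and the splits at 10000 UMIs and by Glul, mitochondrial share and cluster were chosen after the data were seen.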

Additional observations from a re-analysis of the deposited data

Results flagged for a closer look

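The zone gradient of Elovl6, the elongase that turns palmitate into stearate, ran in opposite directions in the 2 libraries. Its pericentral over periportal ratio was 0.651 (0.516 to 0.824) in Control and 1.30 (1.15 to 1.47) in pIVCL, so the counting intervals lay on opposite sides of 1. The difference was not tested, since each group held 1 library. Over 4 alternatives of the zone rule and of depth the ratio stayed between 0.598 and 0.657 in Control and between 1.27 and 1.57 in pIVCL. The pericentral markers that set the zones were themselves lower in pIVCL, with Glul at 0.0298 times and Cyp2e1 at 0.206 times the Control level, and their part in the result was not tested.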

How the results depend on the processing

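No paired analysis was possible because each group held 1 library, and the ratios come from no test. Over 13 alternatives the pIVCL over Control ratio in hepatocyte-like cells ran from 3.08 to 3.84 for Scd1, 1.25 to 1.91 for Elovl6, 1.27 to 1.73 for Acly, 1.25 to 1.70 for Me1, 0.503 to 0.875 for Thrsp and 0.648 to 1.00 for Srebf1. With at least 1000 UMIs and at most 15% mitochondrial UMIs, Fasn was at 0.922 and Acaca at 0.644, and the median log2 ratio was 0.069 for the 8 genes, -0.14 for other fatty acid and triglyceride synthesis, -0.47 for the SREBP pathway, -0.24 for fatty acid oxidation, -0.75 for the fasting list and -0.49 for the clock list. Without the clusters over 95% from 1 library, Fasn was at 0.918 and Acaca at 0.503, and the medians were 0.14 for the 8 genes, -0.69 for the SREBP pathway, -0.059 for oxidation, -0.83 for fasting and -0.58 for clock. Most Control UMIs of Acaca, Fasn, Srebf1 and Thrsp left in that setting came from cluster 20. Thinning to 1000 UMIs gave -0.39 for the lipogenic transcription factors, -0.26 for oxidation and -0.43 for fasting, and weighting cells equally -0.49 for the SREBP pathway and -0.24 for oxidation. With 5 CPM added the clock median was -0.40. In cells under 10000 UMIs, a split chosen after seeing the data, Acaca was at 0.714, and the medians were -0.29 for other fatty acid synthesis, 0.012 for oxidation, -0.45 for the SREBP pathway and -0.57 for clock. The cause of these shifts was not tested. The median log2 ratio of all genes was 0.0037, -0.0091 when scaled without mitochondrial and the 50 most abundant genes, and 0.058 in cells under 10000 UMIs. Few UMIs of the genes other than Scd1 came from cells under 10000 UMIs, which limits their values there.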

Other observations

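The genes of fatty acid breakdown were mostly lower in pIVCL hepatocyte-like cells. Of 17 genes of fatty acid oxidation and ketogenesis, 14 had a counting interval below 1 and 1 above 1, with a median log2 ratio of -0.39, beside 22.1% and 22.8% of all genes measured. Cyp4a14 and Cyp4a10, fatty acid omega-hydroxylases, were at 665 and 678 CPM in Control and 150.3 and 227 CPM in pIVCL (0.226 and 0.335 times). Ppara, the receptor that drives these genes, was at 112 and 53.1 CPM (0.473, 0.431 to 0.521). In cells under 10000 UMIs the median of this list was 0.012.

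The fasting and insulin response list had 0 of 11 genes with an interval above 1 and 8 below 1 (median -0.24). For this list and those below, the shares over all genes were 22.8% above 1 and 22.1% below 1. Igfbp1 was at 559.6 CPM in Control and 145 CPM in pIVCL, the glucose-6-phosphatase gene G6pc at 719 and 320.1 CPM, Irs2 at 63.9 and 25.9 CPM and Angptl4 at 57.3 and 27.9 CPM. The clock list had 2 of 13 genes above 1 and 10 below 1 (median -0.20). Arntl, which encodes the clock activator BMAL1, was higher at 11.1 and 22.1 CPM (1.99, 1.57 to 2.57), while Per1, Nr1d2 and Tef were at 0.232, 0.576 and 0.471 times the Control level. The feeding state and the hour of collection are not given in the sources used here, and their part in the levels of the synthesis genes was not tested. Of 9 measured genes of lipid droplets and lipoprotein export, Plin2, which coats lipid droplets, was the 1 with an interval above 1, at 301 and 382 CPM (1.27, 1.21 to 1.33). Apob was at 3092 and 2119.6 CPM, Mttp at 177 and 135 CPM and Cideb at 122 and 99.5 CPM. The dissociation stress list had 4 of 14 genes above 1 and 4 below 1 (median -0.03), close to the shares of all genes. Egr1 was at 1.25 and Jun at 0.703 times the Control level.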
